A study of Mus musculus with 54 samples.

Results

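NF-κB is a family of dimeric transcription factors, and the genes described here are its 5 subunit genes (Nfkb1, Nfkb2, Rel, Rela and Relb) and 5 genes whose products restrain it (Nfkbia, Nfkbib, Nfkbid, Nfkbie and Tnfaip3). The list names them and sets no threshold on their values, and they are 10 of the 55385 gene identifiers in each count table. All 10 were tested in both tables, among 32290 genes in the CD5/CD6 table and 27780 genes in the LAT table, and all 10 also passed a stricter filter on low counts in both.

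The RNA came from naive CD4+ T cells that were isolated from lymph nodes and spleens, pooled, of mice on a C57BL/6 background. The CD5/CD6 experiment compared WT, Cd5-/-, Cd6-/- and doubly deficient Cd5-/-Cd6-/- cells, enriched with a magnetic EasySep kit, and asked what the coreceptors CD5 and CD6 contribute to the transcriptional response to TCR plus CD28 stimulation. The Cd6-/- allele is a small CRISPR deletion that takes out the start codon, and the doubly deficient mice carry a deletion of chromosome 19 from Cd5 to Cd6. The LAT experiment asked the same of the adaptor LAT, and compared WT and Lat-/- cells that were both sorted, by flow cytometry, out of Lat fl-dtr maT-Cre animals, where loss of the human diphtheria toxin receptor (DTR) marks cells that lost Lat to the Cre: WT cells were human DTR+ and Lat-/- cells human DTR-. Cells of every genotype were taken at 0 h, right after purification, or after 4 h or 20 h of culture with anti-CD3 bound to the plate (3 µg/ml) and anti-CD28 in solution (1 µg/ml). No group was cultured without the antibodies, so in every change from 0 h the effects of culture and of stimulation cannot be told apart. There were 3 libraries in each of the 18 groups, and as nothing in the labels ties libraries to separate mice, p-values measure the spread between libraries only. Both arms of the LAT experiment thus come from mice with the Cre transgene and the floxed allele. Its WT cells are cells of those mice that kept Lat, whereas the WT cells of the other experiment came from WT mice.

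In resting T cells NF-κB dimers are held in the cytoplasm by IκB proteins, and TCR plus CD28 signals lead, through the IκB kinase complex, to IκB degradation and entry of the dimers into the nucleus. Several of the genes that NF-κB switches on encode its own subunits and inhibitors, so the family regulates itself. Nfkb1 and Nfkb2 encode precursors that are processed to the DNA-binding subunits p50 and p52, whereas Rel (c-Rel), Rela (p65) and Relb carry transactivation domains. Among the inhibitors, Nfkbia, Nfkbib and Nfkbie encode the classical cytoplasmic IκBα, IκBβ and IκBε, Nfkbid encodes the nuclear IκBNS, and Tnfaip3 encodes A20, a ubiquitin-editing enzyme that acts upstream of the kinase complex.

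Libraries held 20554354 to 45222554 counts in the CD5/CD6 experiment and 17784644 to 28501095 in the LAT experiment, and levels are given as CPM, read counts scaled to the library total, within a table, or as RPKM, which also divides by gene length, where genes are compared. A change was called when it exceeded 2-fold with an adjusted p under 0.05 in edgeR's quasi-likelihood test over all genes of that table. Shares of all genes called are over every gene tested, 32290 in the CD5/CD6 table and 27780 in the LAT table. The filter on low counts, which every member passed, kept 16143 and 13928 of them. Shares over the kept genes alone were not calculated, so calls of members are not compared with genes of like counts. In the LAT table edgeR's test pooled the spread fully over all genes. In comparisons of 2 groups this gave every member a log2 standard error between 0.146 and 0.167. With low-count genes removed the standard errors ran from 0.116 to 0.418, so adjusted p-values of that fit are also given for results between the genotypes. Lat was at most 19.1 CPM in any Lat-/- library against a mean of 249 CPM in unstimulated WT cells. At 0 h the library labelled Cd5-/- replicate 2 held 720 CPM of Cd5 and 329 CPM of Cd6, and the library labelled Cd6-/- replicate 2 held 173 CPM of Cd5 and 1203 CPM of Cd6, each opposite to its label, so comparisons that use them are also given without both. T cell markers summed to 3030 to 8340 CPM in every library. B cell markers (6 genes) summed to 64.2 to 571 CPM at 0 h, 37.9 to 203 CPM at 4 h and 1.27 to 4.90 CPM at 20 h in the enriched cells of the CD5/CD6 experiment, and to at most 4.83 CPM at 0 h in the sorted cells of the LAT experiment. The part of these other cells in the time courses of the CD5/CD6 experiment was not tested.

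NF-κB dimers bind a 10-base motif, the κB consensus, and 1 match close to an annotated start is shown for each member that has one, because these members include the largest and the smallest responses at 4 h reported here. Promoters were taken from RefSeq on GRCm38.p6, as 250 bases before to 50 bases after each annotated start, and were available for 8 of the 10 genes, Nfkb1 and Relb being without an entry. Of those 8 genes, 6 held at least 1 match on either strand: Nfkb2, Rel, Nfkbia, Nfkbid, Nfkbie and Tnfaip3. Over all genes with a promoter, 1388 of 27025 (5.14%) held one, and over all promoters 1480 of 32851 (4.51%). Rela and Nfkbib held none in these windows. Each sequence below is 30 bases of the gene's own strand, with the 10 matching bases in capitals, and a match is a description of letters, not evidence of binding.
Nfkb2: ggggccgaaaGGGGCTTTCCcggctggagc
Rel: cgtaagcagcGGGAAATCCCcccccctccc
Nfkbia: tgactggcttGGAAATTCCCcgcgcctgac
Nfkbid: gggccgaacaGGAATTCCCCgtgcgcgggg
Nfkbie: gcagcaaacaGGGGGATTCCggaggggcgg
Tnfaip3: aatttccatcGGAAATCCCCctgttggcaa

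The Nfkb2 window lies at chr19:46304716-46304745 on the plus strand, its match beginning 11 bases before an annotated start, and Nfkb2 holds further matches, 1 of them beginning 39 bases before that start and 1 beginning 10 bases after another annotated start. The Rel window lies at chr11:23771042-23771071 (minus strand, 92 bases before the start, with a further match 1 base along) and the Nfkbia window at chr12:55492657-55492686 (minus strand, 29 bases before). The Nfkbid window lies at chr7:30422215-30422244 (plus strand, 181 bases before), and Nfkbid holds another match 226 bases before the start. The Nfkbie window lies at chr17:45555584-45555613 (plus strand, 106 bases before) and the Tnfaip3 window at chr10:19015403-19015432 (minus strand, 12 bases before), with another match of Tnfaip3 at 125 bases. Of the members with a match, Rel and Nfkbid had the largest rises at 4 h in WT cells, while Nfkbia, Nfkbie and Tnfaip3 were not called higher.

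On GRCm38 the subunit genes lie at chr3:135584655-135691547 (Nfkb1, minus strand), chr19:46304320-46312385 (Nfkb2, plus), chr11:23736847-23770970 (Rel, minus), chr19:5637483-5648130 (Rela, plus) and chr7:19606217-19629438 (Relb, minus). The inhibitor genes lie at chr12:55489410-55492647 (Nfkbia, minus), chr7:28758251-28767512 (Nfkbib, minus), chr7:30421732-30428746 (Nfkbid, plus), chr17:45555703-45563169 (Nfkbie, plus) and chr10:19000910-19015657 (Tnfaip3, minus). Exons of Nfkb2 overlap those of Psd, and exons of Nfkbib those of Sirt2, on the opposite strand.

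Per gene length, Rela was the largest share of the subunit RNA in unstimulated WT cells, and Nfkb1 and Rel were the largest after 4 h of stimulation. Rela made up 44.7% ± 1.44 (SD, n = 3) of the summed RPKM of the 5 subunits in unstimulated WT cells from the CD5/CD6 experiment, Nfkb1 23.2% ± 1.20, and Rel was the smallest share at 9.09% ± 0.799. At 4 h Nfkb1 made up 29.7%, Rel 28.1% ± 0.866 and Rela 15.9% ± 1.32, while the summed level went from 109.6 ± 7.46 to 602.5 ± 74.5 RPKM. At 20 h the sum was 264 ± 39.6 RPKM, and Nfkb2 (27.8%) and Nfkb1 (26.0%) were the largest shares. The gene lengths used were 12061 bases for Nfkb1, 7466 for Rel and 3072 for Rela, and the order of the shares rests on them. By counts alone, with no division by gene length, Nfkb1 was the largest share of the 5 at 0 h in these cells (47.9% against 23.6% for Rela) and at 4 h (49.0% against 28.7% for Rel). These are shares of RNA, and as libraries were made from bulk cells, more RNA per cell and more cells with the RNA cannot be told apart.

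**Figure D1:**
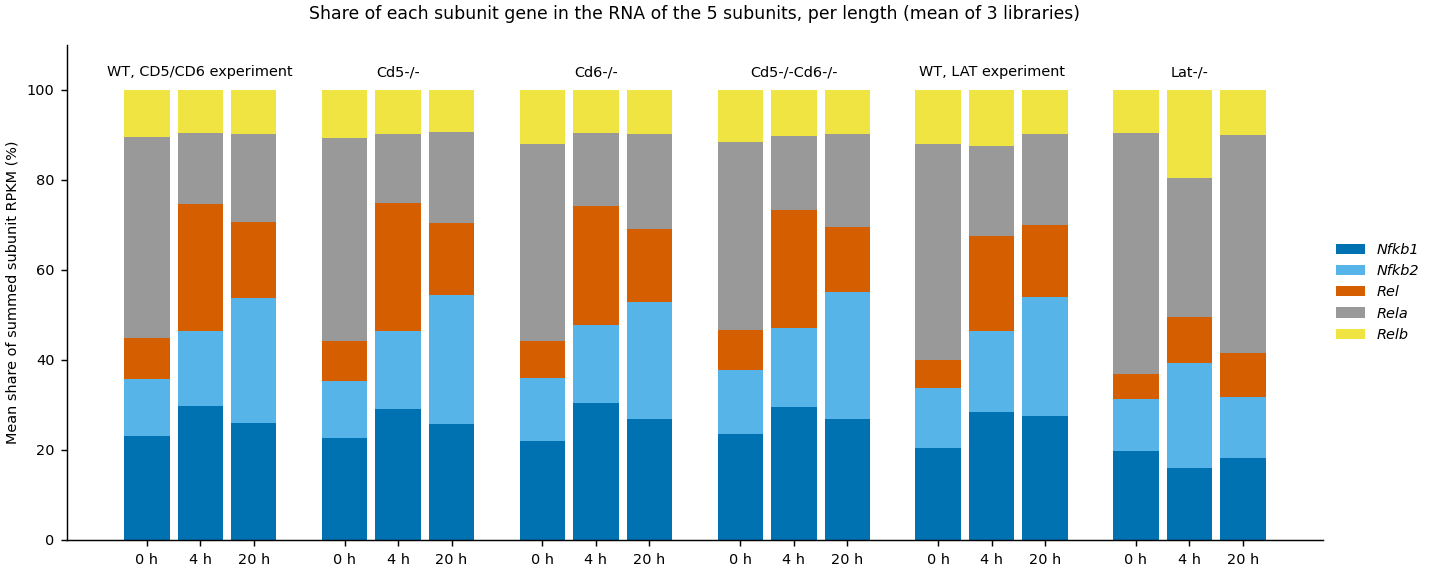
Share of each NF-κB subunit gene in the summed RPKM of the 5 subunits (percent, stacked bars, mean of 3 libraries) at 0, 4 and 20 h in each genotype of both experiments. Per gene length Rela is the largest share at 0 h in all 6 genotypes and, at 30.9%, also at 4 h in Lat-/- cells, where Rel makes up 10.2% against 21.1% in WT cells of that experiment.

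Rel, whose product c-Rel is the subunit most tied to lymphocyte activation, had the largest rise of the 10 members at 4 h in WT cells. It measured 75.7, 74.4 and 72.1 CPM in the 3 unstimulated WT libraries of the CD5/CD6 experiment, 1221, 1466 and 1107 CPM at 4 h, and 408, 340 and 258 CPM at 20 h. The groups did not overlap, and the 4 h level was 17.1-fold higher (log2 fold change 4.09 ± 0.208 SE, 95% interval 3.68 to 4.51, edgeR adjusted p = 1.19e-28). From 4 h to 20 h it was called lower, with a log2 fold change of -1.92. In the LAT experiment's WT cells Rel measured 59.1, 38.6 and 73.9 CPM at 0 h and 900, 1124 and 746 CPM at 4 h, a 16.1-fold rise.

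Nfkb1 and Nfkb2, which encode the precursor subunits, rose by similar folds. Per gene length Nfkb1 was at 180 ± 32.8 RPKM at 4 h in WT cells from the CD5/CD6 experiment and Rel at 169 ± 24.6 RPKM, which did not differ beyond their spread. Nfkb1 measured 295, 308 and 313 CPM at 0 h in WT cells from the CD5/CD6 experiment, 2238, 2525 and 1743 CPM at 4 h, and 948, 946 and 609 CPM at 20 h. Every 4 h library lay above every library at the other times, and the rise at 4 h was 7.10-fold (log2 fold change 2.83 ± 0.185 SE, edgeR adjusted p = 1.27e-22). Nfkb2, the precursor of the non-canonical pathway, measured 54.8, 64.3 and 72.4 CPM at 0 h, 465, 522 and 403 CPM at 4 h and 333, 396 and 280 CPM at 20 h. Its rise at 4 h was 7.25-fold, and from 4 h to 20 h it had the smallest decrease of the 5 subunits, with a log2 fold change of -0.46 from 4 h (adjusted p = 0.0207, under the fold limit) against -1.38 for Nfkb1, -1.92 for Rel, -0.89 for Rela and -1.17 for Relb. Whether Nfkb2 differed from the other subunits in this was not tested.

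Of the transactivating subunits, Relb was called higher at 4 h and Rela was not. Relb, the partner of p52, measured 44.1, 39.5 and 49.6 CPM at 0 h and 222, 226 and 220 CPM at 4 h in WT cells from the CD5/CD6 experiment, a 5.00-fold rise (log2 fold change 2.32 ± 0.150 SE, edgeR adjusted p = 6.71e-23), and 101, 98.9 and 96.2 CPM at 20 h. Rela, which encodes the p65 transactivating subunit, measured 147, 138 and 166 CPM at 0 h and 286, 308 and 282 CPM at 4 h. These groups did not overlap either, but the 1.94-fold difference (log2 fold change 0.96 ± 0.145 SE, edgeR adjusted p = 5.94e-08) was under the fold limit, and it came to 1.02 with low-count genes removed and to 1.06 with the libraries numbered 3 left out of every group. At 20 h Rela was back at 160, 166 and 146 CPM, a log2 fold change of 0.06 from 0 h (adjusted p = 0.875).

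Of the 5 inhibitors, Nfkbid and Nfkbib were called higher at 4 h in WT cells of both experiments. Nfkbid, whose product IκBNS is a nuclear IκB that takes part in inducing Foxp3, measured 56.1, 62.8 and 52.4 CPM at 0 h, 601, 835 and 588 CPM at 4 h and 201, 178 and 141 CPM at 20 h in WT cells from the CD5/CD6 experiment. Its rise of 11.8-fold at 4 h (log2 fold change 3.56 ± 0.207 SE, edgeR adjusted p = 2.37e-25) was second to that of Rel, and the groups did not overlap. Nfkbib, encoding IκBβ, measured 48.0, 47.0 and 54.5 CPM at 0 h, 193, 200 and 204 CPM at 4 h and 124, 148 and 145 CPM at 20 h, a rise of 3.99-fold at 4 h (log2 fold change 2.00 ± 0.161 SE). Reads of Sirt2 would add to Nfkbib, and those of Psd to Nfkb2, only if strand was not used in counting, and that setting is not given in the sources used here. Sirt2 was at 62.3 CPM or more and Psd at 26.1 CPM or less in all libraries of the CD5/CD6 experiment.

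Nfkbia and Nfkbie, the other classical IκB genes, were under the fold limit at 4 h. Nfkbia, encoding IκBα, was the most abundant member per gene length in WT cells at every time, at 205.1 ± 51.0 RPKM at 0 h, 297 ± 34.7 RPKM at 4 h and 168 ± 9.99 RPKM at 20 h, though at 4 h Nfkbid, at 288 ± 59.4 RPKM, did not differ from it beyond their spread. It measured 425, 288 and 278 CPM at 0 h and 440, 542 and 453 CPM at 4 h, so that all 4 h libraries lay above all 0 h libraries, by a log2 fold change of 0.53 ± 0.183 SE (edgeR adjusted p = 0.0184). The length used for Nfkbia was 1610 bases, against 12061 for Nfkb1. By CPM, without length, the mean of Nfkb1 was the higher at 4 h (2169 against 478). Nfkbie, encoding IκBε, was among the least abundant, at 24.0, 28.8 and 42.1 CPM at 0 h and 56.8, 61.9 and 59.2 CPM at 4 h (log2 fold change 0.91 ± 0.172 SE, edgeR adjusted p = 9.66e-06, and 1.17 with libraries 3 left out). The highest 0 h libraries for Nfkbie, WT replicate 3 at 42.1 CPM and Cd6-/- replicate 3 at 50.7 CPM, were also those with the highest summed B cell markers (571 and 343 CPM) and myeloid markers (262 and 384 CPM), and the part of these cells in the Nfkbie values was not tested. At 20 h Nfkbie measured 53.1, 58.2 and 60.2 CPM, with myeloid markers at no more than 3.61 CPM in any library.

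Tnfaip3, encoding A20, had the widest spread of the 10 members between unstimulated libraries of a group. Unstimulated WT cells from the CD5/CD6 experiment held 1827, 599 and 169 CPM, a ratio of highest to lowest of 10.8, and it was 15.6 for Cd5-/-, 27.3 for Cd6-/- and 15.1 for doubly deficient cells, library 1 being the highest in all 4 genotypes. At 4 h WT cells held 234, 343 and 252 CPM, inside the range of the unstimulated libraries, and at 20 h 74.4, 78.1 and 57.5 CPM, below all of them. The decrease at 4 h (log2 fold change -1.65 ± 0.529 SE, edgeR adjusted p = 0.0111) passed the call but the groups overlapped, the DESeq2 adjusted p was 0.0874, the edgeR adjusted p was 0.0974 with low-count genes removed, and without libraries 1 the log2 fold change was -0.37 (adjusted p = 0.254). The level at 20 h was 12.4-fold lower than at 0 h (-3.63 ± 0.573 SE, edgeR adjusted p = 1.11e-07), and without libraries 1 the log2 fold change was -2.50.

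The libraries that were highest for Tnfaip3 at 0 h were also highest for Nfkbia. Nfkbia measured 462, 274 and 228 CPM in Cd5-/-, 482, 322 and 255 CPM in Cd6-/- and 404, 293 and 267 CPM in Cd5-/-Cd6-/- cells at 0 h, library 1 again the highest in each, and the ratio of highest to lowest was between 1.51 and 2.02 over the 4 genotypes. In the LAT experiment library 3 was highest for both genes in both genotypes, with ratios for Nfkbia of 1.38 in WT and 1.69 in Lat-/- cells. What sets these libraries apart is not given in the labels.

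**Figure D2:**
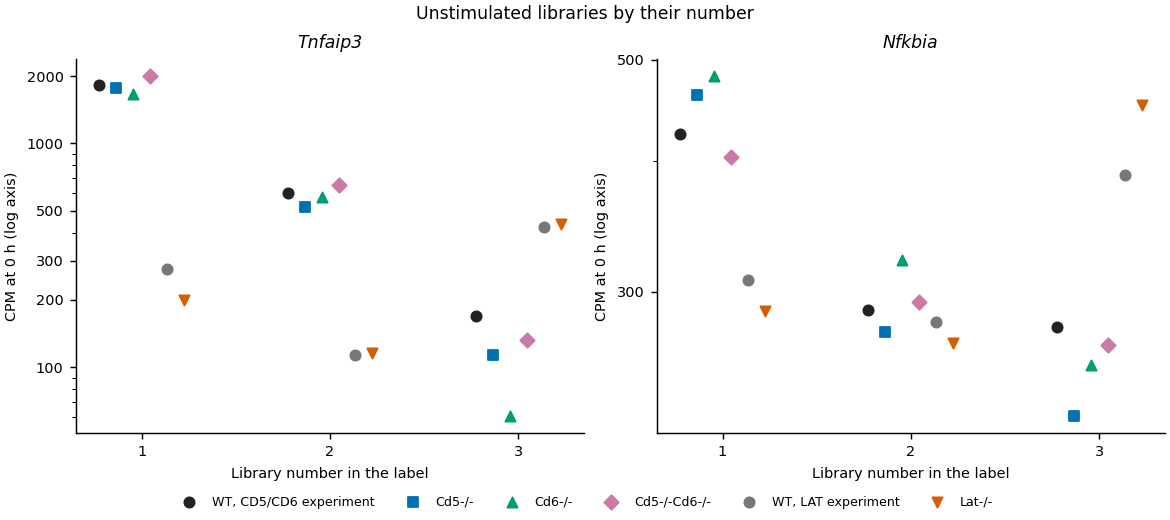
Level of Tnfaip3 and Nfkbia (CPM, log axis) in each unstimulated library, placed by the library number in its label, with 1 symbol for each of the 6 genotypes. In the CD5/CD6 experiment all 4 genotypes are highest in library 1 for both genes, and in the LAT experiment both genotypes are highest in library 3.

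Of the 10 members, 6 were called higher and 1 lower at 4 h in WT cells from the CD5/CD6 experiment, with a median log2 fold change of 2.16. Over all genes tested there, 19.3% were called at 4 h and 8.24% were called higher, with a median of 0 over all of them. At 20 h against 0 h 6 members were higher and 1 lower, where 29.6% of all genes were called, and from 4 h to 20 h 5 fell and none rose, where 21.0% of all genes were called. The 6 that rose at 4 h were Rel, Nfkbid, Nfkb2, Nfkb1, Relb and Nfkbib, and in the LAT experiment's WT cells these 6 rose as well, with none lower and with B cell markers at no more than 4.83 CPM, where 17.3% of all genes were called and 8.05% called higher. In those WT cells the rises at 4 h were 16.1-fold for Rel, 11.4-fold for Nfkbid, 6.51-fold for Nfkb1, 6.27-fold for Nfkb2, 4.75-fold for Relb and 3.80-fold for Nfkbib, and Tnfaip3 had a log2 fold change of 0.16 (edgeR adjusted p = 0.538) in place of a decrease. At 20 h against 0 h Rel, Nfkb2, Nfkbid and Nfkb1 were higher and Tnfaip3 lower there (23.5% of all genes called), and from 4 h to 20 h 5 fell (17.2% called), among them Nfkb1 at -1.04, which came to -0.85 without libraries 1 and -0.96 without libraries 2.

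**Figure D3:**
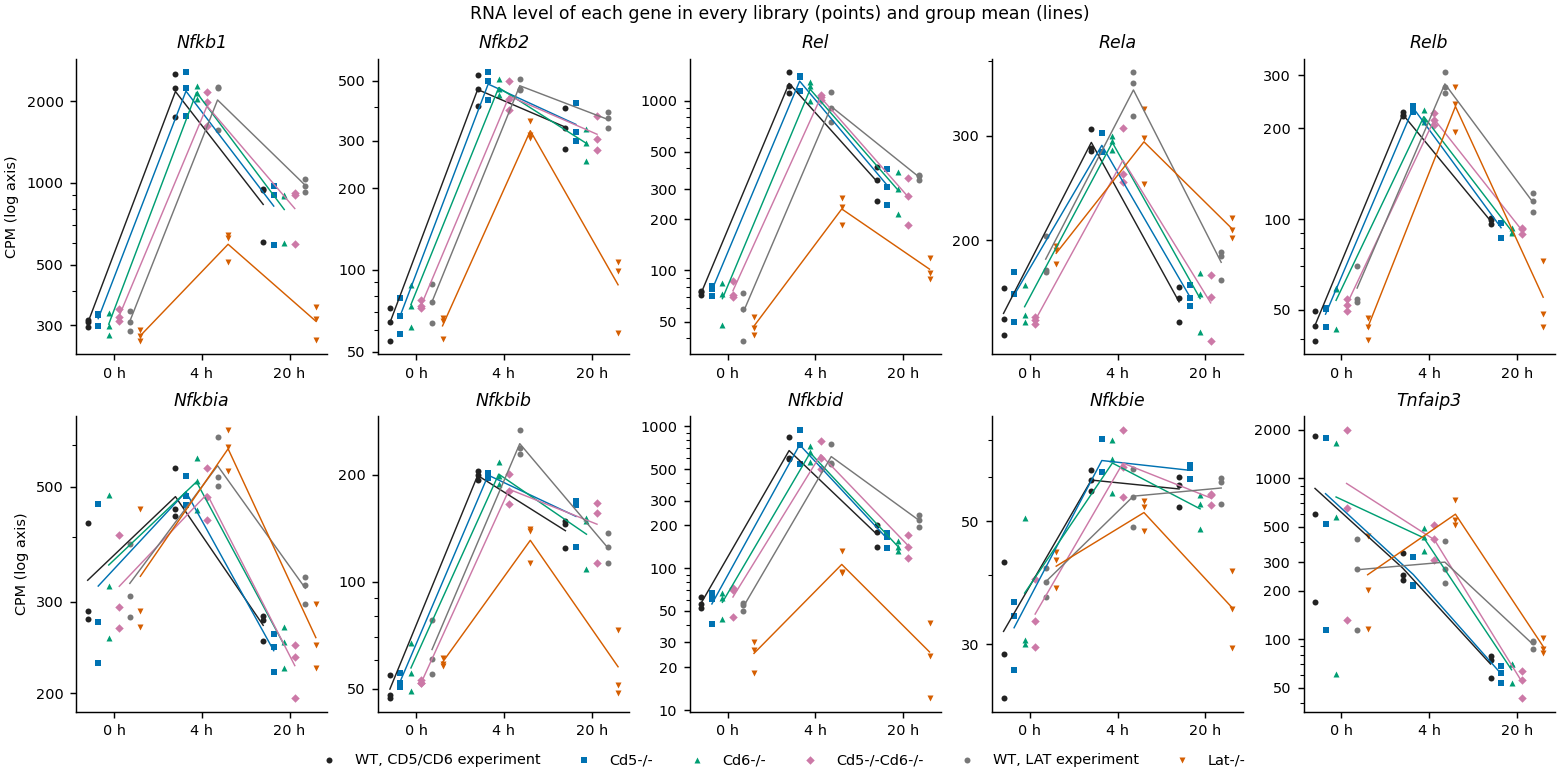
Level (CPM, log axis, a separate range for each gene) of the 10 members at 0, 4 and 20 h, each point a library and each line joining group means, in the 6 genotypes of both experiments. At 4 h the Lat-/- libraries lie below the WT libraries of the LAT experiment for Rel, Nfkb1, Nfkbid, Nfkb2 and Nfkbib but overlap them for Relb. Tnfaip3 spreads from 169 to 1827 CPM among the unstimulated WT libraries of the CD5/CD6 experiment.

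At 4 h Rel, Nfkb1 and Nfkbid were lower in Lat-/- than in WT cells, while the other 7 members were not called between the genotypes. Rel measured 238, 184 and 269 CPM in Lat-/- cells at 4 h against 900, 1124 and 746 CPM in WT cells. It was 4.01-fold lower (log2 fold change -2.00 ± 0.153 SE, edgeR adjusted p = 4.87e-37, and 3.11e-07 with low-count genes removed), and no library overlapped. Nfkb1 measured 629, 643 and 513 CPM against 2243, 2249 and 1565 CPM, 3.39-fold lower (-1.76 ± 0.150 SE, 95% interval -2.06 to -1.47, edgeR adjusted p = 5.46e-30, and 3.69e-08 with low-count genes removed). Nfkbid measured 92.5, 94.0 and 132 CPM against 750, 548 and 538 CPM, 5.76-fold lower (-2.53 ± 0.157 SE, edgeR adjusted p = 1.51e-55, and 1.55e-06 with low-count genes removed). These 3 calls compare with 11.7% of all genes called at 4 h, and the median of the 10 members was -0.42.

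Nfkb2 and Relb, whose products pair in the non-canonical pathway, were under the fold limit between the genotypes at 4 h. Nfkb2 measured 308, 355 and 316 CPM in Lat-/- cells against 508, 466 and 461 CPM in WT cells, a log2 fold change of -0.55 that passed the adjusted p of edgeR (0.00126, and 0.0125 with low-count genes removed) but not the fold limit. Relb measured 241, 274 and 194 CPM against 306, 261 and 274 CPM, with overlapping groups and a log2 fold change of -0.25 (edgeR adjusted p = 0.271). Rela measured 297, 332 and 249 CPM against 383, 367 and 324 CPM (-0.29, edgeR adjusted p = 0.166, but 0.0436 with low-count genes removed and 0.0419 in DESeq2). Nfkbib, at 141, 138 and 113 CPM against 267, 237 and 228 CPM, was 1.87-fold lower (edgeR adjusted p = 2.77e-08, and 0.000108 with low-count genes removed), again under the fold limit. Nfkbia measured 643, 596 and 535 CPM against 523, 501 and 622 CPM (0.11, adjusted p = 0.705), and Nfkbie 48.0, 54.4 and 53.1 CPM against 55.4, 48.9 and 62.2 CPM (-0.10, adjusted p = 0.785). The groups overlapped for Rela, Nfkbia and Nfkbie, whereas for Nfkb2 and Nfkbib every Lat-/- library lay below every WT library.

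The change from 0 h to 4 h, which holds culture as well as stimulation, was then compared between the genotypes. Lat-/- cells at 4 h were higher than unstimulated Lat-/- cells for 7 of the 10 members, where 6.70% of all genes were called and 3.08% called higher, and the median was 1.20. The rises were 5.41-fold for Relb, 5.25-fold for Nfkb2, 4.89-fold for Rel, 4.23-fold for Nfkbid, 2.38-fold for Tnfaip3, 2.20-fold for Nfkbib and 2.17-fold for Nfkb1, and the other 3 members were at log2 fold changes of 0.82 (Nfkbia), 0.62 (Rela) and 0.32 (Nfkbie). With low-count genes removed the same 7 were called, with adjusted p-values from 2.02e-08 for Relb to 0.0195 for Tnfaip3. The response of Lat-/- cells minus that of WT cells was -1.72 ± 0.212 SE on the log2 scale for Rel (edgeR adjusted p = 4.64e-14), -1.59 ± 0.207 for Nfkb1 (1.72e-12) and -1.43 ± 0.214 for Nfkbid (1.16e-09), which gave adjusted p-values of 1.80e-04, 2.05e-05 and 0.0112 with low-count genes removed. For Nfkb2 the difference was -0.26 (95% interval -0.67 to 0.16), for Relb 0.19 (-0.23 to 0.60) and for Nfkbia 0.06 (-0.34 to 0.47). A difference of response beyond 0.67 on the log2 scale lay outside each of these intervals, which hold for the pooled fit only. In DESeq2 the differences were -0.24 ± 0.265 SE for Nfkb2, 0.21 ± 0.259 SE for Relb and 0.08 ± 0.251 SE for Nfkbia. Including Tnfaip3, 4 members were called in this difference, where 8.71% of all genes were called.

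Tnfaip3 was not called between Lat-/- and WT cells at 4 h. It measured 552, 515 and 728 CPM in Lat-/- cells against 222, 271 and 410 CPM in WT cells, and the groups did not overlap. The log2 fold change was 0.99 ± 0.149 SE, just under the fold limit (edgeR adjusted p = 4.82e-10, 0.0452 with low-count genes removed and 0.0606 in DESeq2). Its response exceeded that of WT cells by 1.09 ± 0.209 SE (edgeR adjusted p = 4.12e-06), but the adjusted p was 0.147 with low-count genes removed and 0.159 in DESeq2, and the difference was 0.86 without libraries 1. Unstimulated levels were spread here too, at 274, 114 and 422 CPM in WT and 201, 116 and 437 CPM in Lat-/- cells, library 3 being the highest in both, and without libraries 2 the rise of Lat-/- cells was 0.99 on the log2 scale.

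**Figure D4:**
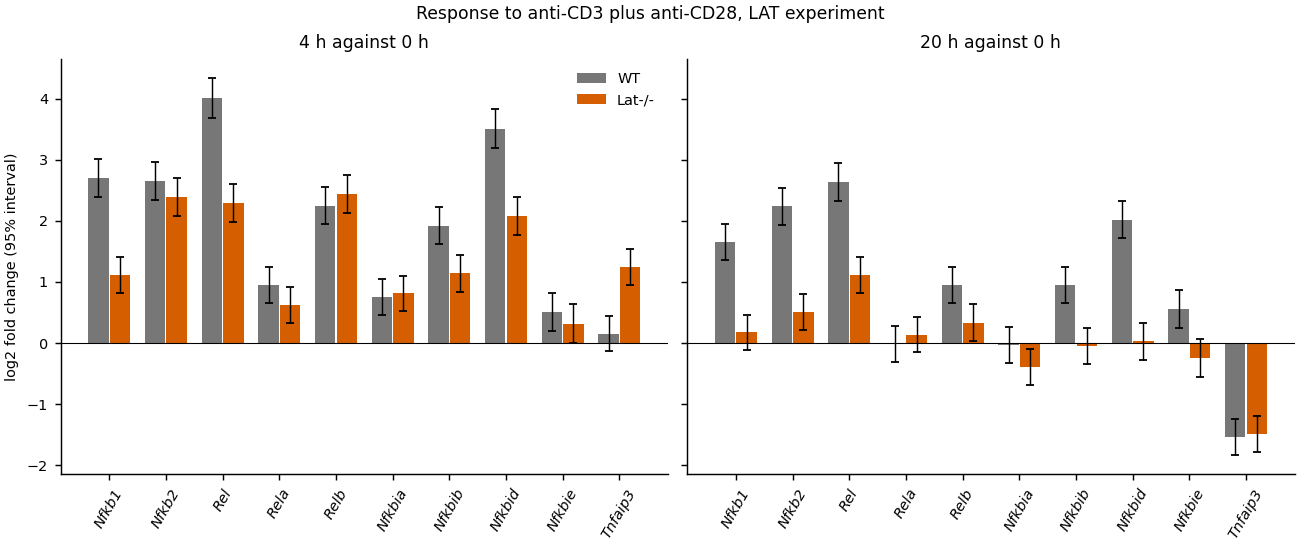
Log2 fold change from 0 h (bars, with 95% intervals as error lines) of each member at 4 h and 20 h in WT and in Lat-/- cells of the LAT experiment. At 4 h the bars of Rel are at 4.01 in WT and 2.29 in Lat-/- cells and those of Relb at 2.25 and 2.44, and at 20 h those of Nfkbid are at 2.02 and 0.03.

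The makeup of the subunit RNA at 4 h also differed. Per gene length Rela was still the largest share in Lat-/- cells, at 30.9% ± 1.65, followed by Nfkb2 at 23.2% and Relb at 19.7% ± 1.58, with Rel the smallest at 10.2% ± 2.77. In WT cells of the same experiment the order was Nfkb1 (28.5%), Rel (21.1% ± 2.60), Rela (20.0%), Nfkb2 (18.0%) and Relb (12.5%), where Rel and Rela did not differ beyond their spread. The summed RPKM was 307.4 ± 27.8 in Lat-/- and 584.2 ± 67.7 in WT cells. Calculated from counts without gene length, the order in Lat-/- cells at 4 h was another, with Nfkb1 at 35.3%, Nfkb2 at 19.4%, Rela at 17.4%, Relb at 14.0% and Rel at 13.9%, and Nfkb1 was at 49.5% in WT cells.

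At 20 h few members of Lat-/- cells differed from their unstimulated level. The 2 called of the 10 were Rel at 1.11 and Tnfaip3 at -1.48 on the log2 scale, and 4.21% of all genes were called. Nfkb2 was at 0.50 (edgeR adjusted p = 0.0104), under the fold limit. Without libraries 1 the value of Rel was 0.92 and without libraries 3 that of Tnfaip3 was -0.77, both then under the fold limit. From 4 h to 20 h 7 members fell in Lat-/- cells (4.10% of all genes called), the largest falls being of Tnfaip3 (-2.73), Relb (-2.10), Nfkbid (-2.05) and Nfkb2 (-1.89). Nfkb2, which had reached 308 to 355 CPM at 4 h, was at 98.9, 58.3 and 107 CPM at 20 h in Lat-/- cells, while WT cells held 333, 382 and 364 CPM. Relb went from 194 to 274 CPM at 4 h to 48.4, 44.0 and 72.7 CPM, against 106, 122 and 115 CPM in WT cells.

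At 20 h 6 members were lower in Lat-/- than in WT cells and none higher, where 24.4% of all genes were called and 12.3% called lower, and the median of the 10 was -1.08. Shares of all genes here include genes with low counts, and the members were not compared with well-counted genes alone. Nfkbid differed most, at 23.9, 12.1 and 41.0 CPM against 196, 220 and 237 CPM, 8.48-fold (log2 fold change -3.08 ± 0.162 SE). Nfkb2 was 4.08-fold lower, Rel 3.49-fold, Nfkb1 3.16-fold, Nfkbib 2.17-fold and Relb 2.07-fold, and no libraries of the 2 genotypes overlapped for these 6. With low-count genes removed the same 6 were called, with adjusted p-values from 1.27e-08 for Nfkb2 to 2.45e-05 for Relb. Without libraries 2 Relb came to -0.81 and Nfkbib to -0.96 on the log2 scale, under the fold limit. Nfkbie was lower by a log2 fold change of -0.71 (edgeR adjusted p = 3.98e-05), whereas Rela (0.19), Nfkbia (-0.32) and Tnfaip3 (-0.05) were not called. The difference of response at 20 h was called for 4 members, Nfkbid (-1.99), Nfkb2 (-1.73), Rel (-1.52) and Nfkb1 (-1.48), where 19.5% of all genes were called, and lay at the fold limit for Nfkbib (edgeR adjusted p = 2.36e-05). With low-count genes removed the adjusted p-values of these 4 ran from 9.35e-06 for Nfkb1 to 0.000469 for Nfkbid, and that of Nfkbib was 0.00107.

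Before stimulation 1 of the 10 members, Nfkbid, was called between the genotypes of the LAT experiment, where 0.961% of all genes were called. It measured 26.6, 18.4 and 30.3 CPM in Lat-/- cells against 54.9, 49.6 and 56.5 CPM in WT cells, 2.14-fold lower without overlap (log2 fold change -1.10 ± 0.154 SE, edgeR adjusted p = 4.10e-10). The adjusted p was 0.0824 with low-count genes removed and 0.0112 in DESeq2, and without libraries 2 the log2 fold change was -0.97. Foxp3, which marks regulatory T cells, moved with it, at 24.5, 16.3 and 23.2 CPM in Lat-/- and 54.5, 50.3 and 62.4 CPM in WT cells. Foxp3 and Ikzf2, the 2 regulatory T cell markers listed, summed to 19.5 to 34.8 CPM in Lat-/- and 60.6 to 91.1 CPM in WT cells at 0 h, to 7.04 to 29.0 and 50.1 to 71.2 CPM at 4 h, and to 4.53 to 10.6 and 34.5 to 36.9 CPM at 20 h. The part of regulatory T cells in the Nfkbid differences was not tested. The other 9 members were within -0.44 and 0.09 on the log2 scale, the widest being Relb at -0.44 (adjusted p = 0.173).

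No member was called between WT cells and cells that lacked CD5, CD6 or both. Rel, the steepest responder, measured 1376, 1397 and 1140 CPM at 4 h in Cd5-/-, 1283, 1220 and 1001 CPM in Cd6-/- and 1050, 1075 and 1010 CPM in Cd5-/-Cd6-/- cells, against 1221, 1466 and 1107 CPM in WT cells. The groups overlapped for Cd5-/- and Cd6-/- cells, and the Cd5-/-Cd6-/- libraries lay below the WT libraries. Over the 9 comparisons of a knockout with WT, 0 members were called in edgeR or DESeq2, and of the 90 single comparisons 0 had an unadjusted p under 0.05 in edgeR, 2 in DESeq2 and 5 with the replicate block, which matches libraries by number. The lowest blocked p was that of Rel in Cd5-/-Cd6-/- cells at 20 h (log2 fold change -0.32, unadjusted p = 0.0121, adjusted p of 1.0). Of all genes, 0.0619%, 0.0743% and 0.0186% were called for Cd5-/- at 0, 4 and 20 h, 0.00%, 0.00310% and 0.0186% for Cd6-/-, and 0.0248%, 0.0434% and 0.0434% for Cd5-/-Cd6-/- cells. For the 9 members other than Tnfaip3, the 81 log2 differences from WT lay between -0.31 and 0.27, and their 95% intervals between -0.68 and 0.57, and a 2-fold change in either direction lay outside all of them. With the block these intervals lay between -0.57 and 0.50. Without the 0 h libraries that oppose their labels, the 18 differences at 0 h of Cd5-/- and Cd6-/- cells lay between -0.19 and 0.39, with intervals between -0.57 and 0.72. For Tnfaip3 the 9 differences lay between -0.37 and 0.63 but their intervals reached from -1.41 to 1.66, so a 2-fold change lay inside them.

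At 4 h Tnfaip3 had the largest difference from WT among these comparisons. It measured 353, 491 and 434 CPM in Cd6-/- and 312, 512 and 421 CPM in Cd5-/-Cd6-/- cells against 234, 343 and 252 CPM in WT cells, so that the Cd6-/- libraries lay above the WT libraries and the doubly deficient ones overlapped them. The log2 fold change was 0.63 ± 0.518 SE for Cd6-/- (edgeR unadjusted p = 0.231) and 0.59 ± 0.518 SE for Cd5-/-Cd6-/- cells (0.261), with every same-numbered pair higher, and it was 0.66 and 0.63 with the block (unadjusted p of 0.141 and 0.159). As the fit takes 1 spread for a gene over all groups, the wide spread of Tnfaip3 at 0 h enters these errors. Fitted with the compared groups alone, the adjusted p was 0.0472 for Cd6-/- and 0.414 for Cd5-/-Cd6-/- cells, and without libraries 3 it was 0.00581 and 0.0116, all under the fold limit. Nfkbia at 20 h was lower than in the same-numbered WT library in every library of the 3 knockouts, by a log2 fold change of -0.16 without CD5, -0.13 without CD6 and -0.26 without both, with unadjusted p-values in edgeR of 0.379, 0.490 and 0.163, and of 0.309, 0.428 and 0.108 with the block.

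The time course of each member was also compared between the genotypes. At 4 h the log2 fold change over the 4 genotypes ran from 3.78 to 4.10 for Rel, 3.33 to 3.73 for Nfkbid, 2.56 to 2.83 for Nfkb1, 2.56 to 2.86 for Nfkb2, 2.02 to 2.32 for Relb and 1.80 to 2.00 for Nfkbib. Rela (0.84 to 0.96) and Nfkbia (0.53 to 0.60) were called in 0 of the 4 genotypes and Nfkbie (0.78 to 1.00) in 1. Tnfaip3 ran from -1.67 to -0.84, called in 2 of the 4 genotypes. At 4 h the count of members called was 8 for Cd5-/-, 6 for Cd6-/- and 6 for doubly deficient cells, where 19.5%, 18.0% and 17.2% of all genes were called, and at 20 h 6 were called in each, where 30.0%, 28.2% and 30.3% were. Without both 0 h libraries whose Cd5 and Cd6 values oppose their labels, the counts were 8 in Cd5-/- and 7 in Cd6-/- cells at 4 h and 6 in each at 20 h, and 0 between genotypes. Rel then rose by 4.11 and 4.14 on the log2 scale at 4 h in Cd5-/- and Cd6-/- cells and Relb by 2.31 and 1.89, and Tnfaip3 was called lower in both (-1.90 and -1.02). For the difference of response from WT, 0 members were called at 4 h or 20 h, 0 of 60 had an unadjusted p under 0.05 in edgeR, 4 in DESeq2 and 4 with the block, and 0.00310% and 0.00310% of all genes were called for Cd5-/-, 0.00% and 0.00310% for Cd6-/- and 0.00% and 0.00% for Cd5-/-Cd6-/- cells. Apart from Tnfaip3 the 54 differences lay between -0.42 and 0.16, with 95% intervals between -0.94 and 0.69. Without the 0 h libraries that oppose their labels the 36 differences for Cd5-/- and Cd6-/- cells lay between -0.51 and 0.35, with intervals between -0.98 and 0.85.

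**Figure D5:**
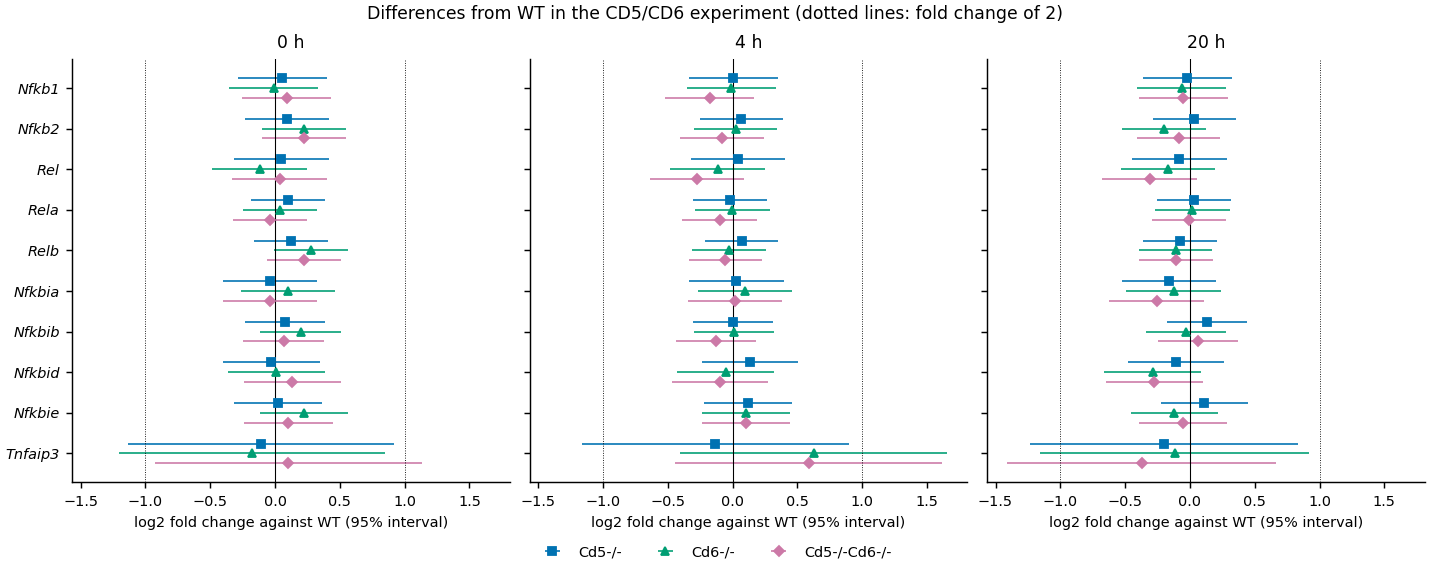
Log2 fold change against WT (points, with 95% intervals as lines, dotted lines at a fold change of 2) of each member in Cd5-/-, Cd6-/- and Cd5-/-Cd6-/- cells at 0, 4 and 20 h. Points of the 9 members other than Tnfaip3 lie between -0.31 and 0.27, and the intervals of Tnfaip3 reach from -1.41 to 1.66.

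Other genes of the pathway were counted as 6 lists of 45 genes, all of them tested. In WT cells from the CD5/CD6 experiment 13 rose and 4 fell at 4 h, and in the LAT experiment 14 rose and 1 fell in WT cells and 10 rose and 1 fell in Lat-/- cells, where 19.3%, 17.3% and 6.70% of all genes were called. Most of these were among 12 target genes of NF-κB, 8 of which rose and 2 of which fell at 4 h (median log2 fold change 2.40), including Irf4, a transcription factor of activated lymphocytes, at 6.61, Tnf, the cytokine, at 5.82, and Il2ra, the IL-2 receptor α chain, at 5.16, with Vcam1, an adhesion molecule of stromal and myeloid cells, at -4.43. Vcam1 measured 42.6 CPM at 0 h in these enriched cells and 0.0770 CPM in the sorted WT cells of the LAT experiment. In the LAT experiment 9 of the 12 rose in WT cells (median 2.62), and 7 rose and 1 fell in Lat-/- cells (median 1.41). At 4 h 7 targets were lower and 1 higher in Lat-/- than in WT cells (median -1.87), where 11.7% of all genes were called. At 20 h 8 were lower (median -2.73), where 24.4% of all genes were called and 12.3% called lower. Irf4 rose by 6.46 in WT and 5.76 in Lat-/- cells, Tnf by 5.19 and 2.00, and Il2ra by 3.73 and 1.93 on the log2 scale.

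Of the 8 genes of the IκB kinase module 0 were called at 4 h in WT cells from the CD5/CD6 experiment, with Chuk (the kinase IKKα) at 0.84, Ikbkb (IKKβ) at -0.52, Map3k7 (TAK1) at 0.86 and Tab3 (a TAK1-binding protein) at 0.45, and 4 fell at 20 h (median -0.93), where 29.6% of all genes were called and 17.3% called lower. At 4 h in these cells 19.3% of all genes were called and 8.24% called higher. On the same log2 scale, of 8 ubiquitin ligases 1 rose at 4 h, Birc3 (cIAP2) at 1.18, and of 9 further brakes 2 rose, Tnip2 at 2.38 and the scarcely detected Tnip3 at 1.97, and 1 fell, Tnip1, by just over the fold limit, all 3 A20-binding inhibitors. None of the 3 other IκB-like genes was called, with Bcl3 at -0.33, Nfkbiz at -0.01 and Nfkbil1 at 0.08. Bcl3, a nuclear partner of p50 and p52, rose by 1.18 at 4 h in Lat-/- cells, where it was higher than in WT by 1.21 at 4 h and lower at 20 h (-1.39).

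The genes whose pattern over the conditions was most like each member's were found by the lower of the Pearson correlations of log2 group means over the 12 groups of the CD5/CD6 table and the 6 of the LAT table, among 10086 genes, with the time course shared by all points. They were Kdm2b for Nfkb1 (r of 0.998 in both), Pogk for Rel (0.997 and 0.996), Odc1 for Nfkb2 (0.997 and 0.993), Stam2 for Rela (0.989 and 0.996) and Tfe3 for Relb (0.991 and 0.983). Among the inhibitors they were Foxp4 for Nfkbid (0.991 and 0.995), Tmem248 for Nfkbib (0.994 and 0.988), Cenpc1 for Nfkbie (0.972 and 0.981), Il18rap for Tnfaip3 (0.968 and 0.952) and Chmp4b for Nfkbia (0.949 and 0.956), the last with the lowest likeness of the 10.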

How the data were processed

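The deposited values were raw counts of reads per gene, 1 table for the 36 libraries of the CD5/CD6 experiment and 1 for the 18 of the LAT experiment. The authors made stranded TruSeq libraries, sequenced single reads of 50 bases and counted them per gene, and the submitters' processing notes name bcl2fastq 2.17.1.14, STAR, featureCounts, DESeq2 and the builds GRCm38 and mm10. The annotation release and the strand setting of the counting are not given in the sources used here. Groups and replicate numbers came from the sample titles, 0 per-sample columns were left unused, and 54487 of 55385 identifiers were matched to a symbol.

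Each table was fitted on its own in R 4.3.3 with edgeR 4.0.16 (quasi-likelihood test, TMM factors, genes with at least 1 read over the table, all groups in 1 fit, no replicate block), with Benjamini-Hochberg adjustment over all genes tested. The residual degrees of freedom were 24 and 12, and the prior degrees of freedom that pool the spread over genes were 50.9 in the CD5/CD6 table and infinite in the LAT table. Removing low-count genes with filterByExpr brought them to 4.82 and 6.46. A change was called at a fold above 2 and an adjusted p under 0.05. CPM used TMM-adjusted totals and RPKM the gene length in the tables. A floor of 3 counts was 0.0663 to 0.146 CPM and 0.105 to 0.169 CPM in the respective tables, which covers counting error only. No pair of libraries of a group agreed within sampling noise (smallest chi-square per degree of freedom 12.8 and 3.02). Patterns were likened by Pearson correlation of group means of log2 CPM with a prior count of 2, over genes that averaged 50 or more counts in both tables. Scripts were tested on simulated data.

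The named genes are the 10 members, Cd5, Cd6 and Lat as label checks, up to 4 genes of each pathway list described with the largest absolute fold change in the 4 h response of the CD5/CD6 experiment's WT cells, and the gene most like each member. Foxp3 and Junb, and genes of those lists named for other comparisons, were chosen after their values were seen. The members and the lists were chosen with earlier results of these data known. Genes of 1 of the 6 pathway lists enter the totals over all lists and are not reported here. Alternatives were DESeq2 1.42.0, RLE factors, no TMM factors, filterByExpr, only the groups compared, a replicate block, the adjusted p alone, each replicate left out and, in the CD5/CD6 experiment, both 0 h libraries that oppose their labels left out. The numbers paired the libraries, with every same-numbered pair correlated above 0.1 over 13738 genes, in 13 of 21 comparisons of the CD5/CD6 experiment, and over 12540 genes in 1 of 9 of the LAT experiment.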

Additional observations from a re-analysis of the deposited data

Results flagged for a closer look

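The response of Lat-/- cells differed from that of WT cells, by the interaction term of edgeR's quasi-likelihood test, for 4 members at 4 h and 4 at 20 h. Over all genes 8.71% were called at 4 h and 19.5% at 20 h. At 4 h the difference on the log2 scale was -1.72 for Rel, -1.59 for Nfkb1 and -1.43 for Nfkbid, whose responses were smaller without LAT, and 1.09 for Tnfaip3, whose response was larger. At 20 h it was -1.99 for Nfkbid, -1.73 for Nfkb2, -1.52 for Rel and -1.48 for Nfkb1. Nfkb2 was thus called at 20 h and not at 4 h, where its difference was -0.26 (95% interval -0.67 to 0.16), and whether the 20 h difference exceeded the 4 h difference was not tested. Of these 8 calls, that of Tnfaip3 was lost with low-count genes removed (adjusted p = 0.147) and in DESeq2 (0.159).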

How the results depend on the processing

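Of 372 counts of called members compared under the alternatives 366 were within 1.5 times of the reported count. For Lat-/- cells against WT, the count was 0 at 0 h with low-count genes removed and 0 to 1 with a replicate left out (0 without replicate 2), and 6 at 4 h by the adjusted p alone. The difference of response at 20 h held 7 members by the adjusted p alone. Lat-/- cells at 20 h against 0 h held 1 to 2 with a replicate left out (1 without replicate 1 or replicate 3). The share of Rel in Lat-/- cells at 4 h was 13.9% from counts without gene length. Of 1260 single-gene values 1188 kept their direction and side of the thresholds, 21 lost their call, 21 gained one and 30 reversed, none of these with an adjusted p under 0.05 as reported. Reversed values were, without TMM factors, -0.0754 for Rela (WT of the CD5/CD6 experiment, 20 h against 0 h), 0.0495 for Nfkbie (the same cells, 20 h against 4 h), -0.0827 for Tnfaip3 (WT of the LAT experiment, 4 h against 0 h), -0.0291 for Nfkbid (Lat-/-, 20 h against 0 h) and 0.0237 for Nfkbie (Lat-/- against WT, 4 h). In DESeq2 and with RLE factors, Rela was 0.033 and Nfkbia 0.0247 (WT of the LAT experiment, 20 h against 0 h), and with only the groups compared Tnfaip3 was 0.0028 (Lat-/- against WT, 20 h). With a replicate left out, Rela ran from -0.0809 to 0.19 (WT of the CD5/CD6 experiment, 20 h against 0 h). In WT of the LAT experiment Tnfaip3 ran from -0.19 to 0.34 at 4 h against 0 h, Rela from -0.0706 to 0.0213 and Nfkbia from -0.19 to 0.0897 at 20 h against 0 h, and Nfkbie from -0.0665 to 0.16 at 20 h against 4 h. In Lat-/- cells at 20 h against 0 h Nfkbib ran from -0.24 to 0.0858 and Nfkbid from -0.30 to 0.19. For Lat-/- against WT at 0 h Rela ran from -0.0314 to 0.0924, Nfkbia from -0.0869 to 0.0952, Nfkbib from -0.21 to 0.0182 and Tnfaip3 from -0.30 to 0.0384, and at 20 h Tnfaip3 ran from -0.21 to 0.0796. For the difference of response Relb ran from -0.15 to 0.44 and Nfkbia from -0.0548 to 0.37 at 4 h, and Tnfaip3 from -0.25 to 0.31 at 20 h. With the replicate block, which matches libraries by number, every count of called members was within 1.5 times, Nfkbid in Lat-/- cells at 20 h against 0 h was -0.0206, and the call gained was Tnfaip3 in Lat-/- against WT cells at 4 h (1.01, adjusted p = 3.51e-11). Among the 1260 single-gene values the block changed no other call, and the pairing is a hint from the data, not from the labels. The cause of these changes was not tested. With 3 libraries a group, members close to the 2-fold limit move across it with the setting, and the spread of Tnfaip3 at 0 h limits every comparison with it.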

Other observations

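Among the 45 other pathway genes at 0 h, library 1 was the highest in all 4 genotypes of the CD5/CD6 experiment for 10, and library 3 in both genotypes of the LAT experiment for 13. Junb and Nfkbiz, chosen after their values were seen, are examples. Junb, an AP-1 subunit gene of the immediate early response, measured 3220, 2300 and 1190 CPM in libraries 1, 2 and 3 of unstimulated WT cells of the CD5/CD6 experiment, 1510, 789 and 1910 CPM in WT and 1660, 741 and 2420 CPM in Lat-/- cells of the LAT experiment. Nfkbiz, which encodes the inducible nuclear IκBζ, measured 127, 108 and 34.4 CPM in the former and 50.2, 22.3 and 90.0 CPM in WT and 34.7, 21.2 and 98.7 CPM in Lat-/- cells. These libraries rank in the same order for Tnfaip3. Other genes did not follow it, with Tnf at 5.99, 15.5 and 15.8 CPM and Bcl3 at 21.9, 24.2 and 37.5 CPM in libraries 1, 2 and 3 of the same WT cells of the CD5/CD6 experiment. In the CD5/CD6 experiment library 1 was the highest in all 4 genotypes for 674 of 13738 genes (4.91%), among them Rel, Nfkbia and Tnfaip3, and exceeded the next by over 1.5 times in all 4 for 30 genes (0.218%), among them Tnfaip3. In the LAT experiment library 3 was the highest in both genotypes for 2159 of 12540 genes (17.2%), among them Rel, Nfkbia, Nfkbid and Tnfaip3, and by over 1.5 times for 104 genes (0.829%), among them Tnfaip3 and Nfkbiz.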
